A study of Mus musculus with 12 samples.

Results

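Fibroblasts sorted from mouse back skin wounds were compared between 3 d and 1.5 d after injury. The comparison uses 6 of the 12 libraries of the study, 3 at each of these times, and all 14901 genes that had enough counts to be tested, of 25239 in the table. All animals were wild type male C57BL/6 mice, 8 weeks old. Wounds of full thickness were punched into the back skin at 4 mm width, and each library comes from a different mouse. The other 6 libraries, from unwounded skin (NW) and from wounds at 16 h, share the fit and serve as reference levels. The sort kept live cells that stained for SCA1, the product of Ly6a, and left out CD45+ and CD31+ cells, which are leukocytes and endothelium. Fibroblasts without SCA1 are thus outside the data, and no other surface protein was used to keep fibroblasts apart from SCA1+ cells of other kinds.

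In the first days of skin repair, dermal fibroblasts release chemokines and cytokines that recruit leukocytes. They later deposit new matrix of collagens, fibronectin, tenascins and periostin, and a share of them become myofibroblasts, contractile cells that carry smooth muscle actin and respond to TGF-beta and to tension. SCA1 marks many fibroblasts of the lower dermis, fascia and vessel adventitia in the mouse.

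The genes called between the 2 times included, on the higher side at 3 d, those of tenascin N, periostin, collagen XII, smooth muscle actin and cadherin 11, and, on the lower side, those of a chemokine and a cytokine receptor. By the edgeR quasi-likelihood test 21 genes (0.141% of those tested) passed an adjusted p of 0.05. Of these, 15 (0.101%) were higher at 3 d: Lrrc15, Tnn, Ccn3, Wnt9a, Acta2, Cdh11, Tgfb3, Postn, Igfbp5, Ednra, Col12a1, Fam20a, Lrrc17, Fbln5 and Palld. The 6 lower at 3 d (0.0403%) were Rasgrp3, Alpl, Fgf23, Il31ra, Cxcl14 and Cyp4b1. Scaling by total counts in place of TMM gave 21 higher and 30 lower, so that higher genes made up 41.2% of the calls and not 71.4%. DESeq2 called 124 higher (0.832%) and 76 lower (0.51%) from the same counts, with all 21 genes among them. At an unadjusted p under 0.05 there were 1191 genes (7.99%), 594 on the higher side (3.99%) and 597 on the lower (4.01%). All 3 d libraries lay above all 1.5 d libraries for 1032 genes (6.93%) and below them for 988 (6.63%). These shares over all genes belong beside each count of list members below. The median log2 change over all genes was 0.0039, and total-count scaling moved it to -0.094.

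**Figure D1:**
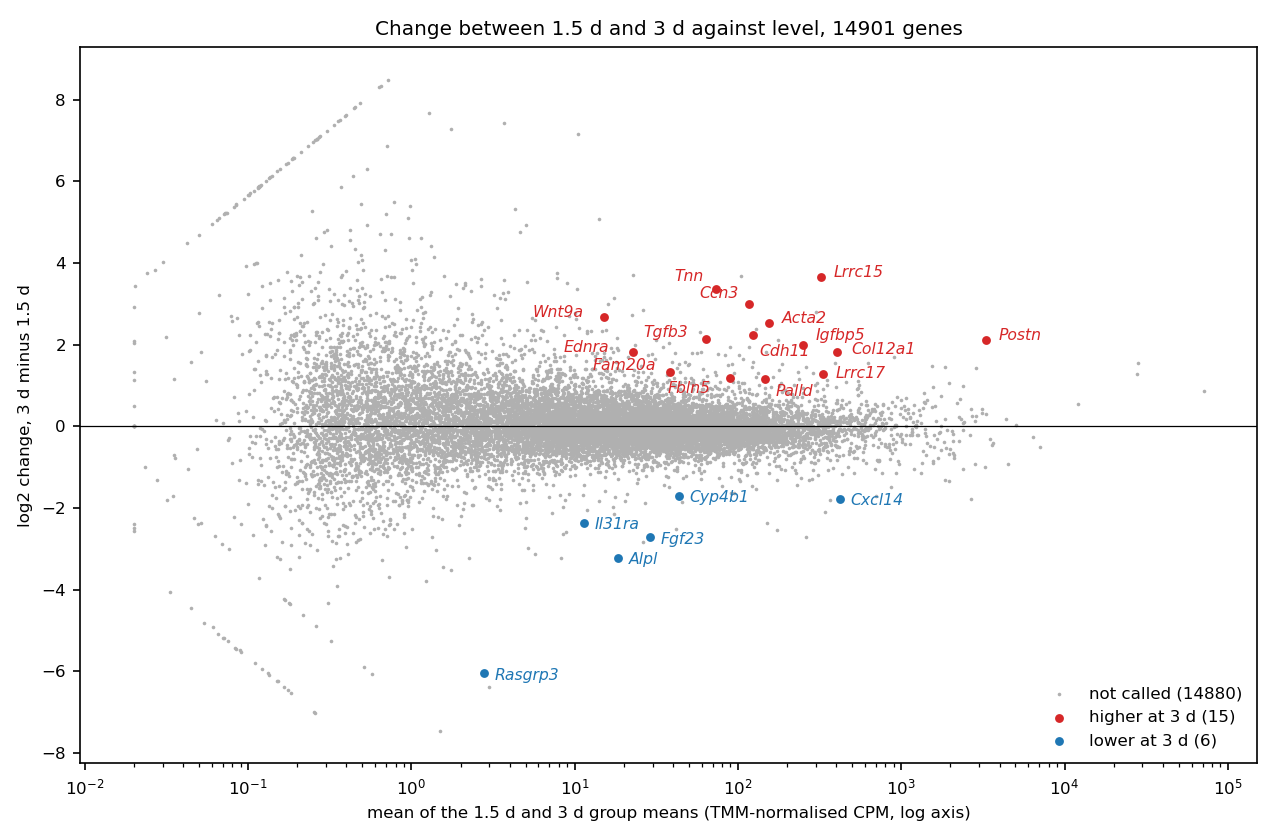
Log2 change from 1.5 d to 3 d (vertical axis) against the mean of both group means in CPM (horizontal log axis) for 14901 genes, 1 point a gene. The 15 genes called higher (red) all lie above 10 CPM, and Rasgrp3 is the lowest of the 6 called lower (blue).

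Levels below are TMM-normalised CPM, given for replicates 1, 2 and 3 in that order. Totals were 32277039, 38973316 and 43493475 counts at 1.5 d and 27308855, 28556445 and 26389453 at 3 d, where 3 counts stand for 0.069 to 0.114 CPM. Within a group, libraries correlated at 0.930 to 0.947 on the log2 scale, and the chi-square per degree of freedom of their counts, near 1 under counting error, was 89.2 to 226. Ly6a, the gene of the sort marker, stood at 2916, 1482 and 1662 CPM at 1.5 d and 1211, 1101 and 961 CPM at 3 d (adjusted p = 0.349). Ptprc (CD45) and Pecam1 (CD31) stayed at or under 2.26 and 1.67 CPM in the 6 libraries. Nothing in bulk RNA separates fewer cells of a kind from less RNA per cell, and this holds for each value here.

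To show the sequences behind 4 of these genes, the 300 bases around a start site (250 before, 50 after) are printed from the RefSeq table of GRCm38.p6, in mm10 coordinates, 5′ to 3′ on the gene's strand. Lrrc15 had the largest rise, Tnn held its call with any 1 library left out, Acta2 is the smooth muscle actin gene, and Cyp4b1 fell. Capitals mark matches to AP-1 (TGANTCA) in Lrrc15 and Cyp4b1 and to MCAT (CATTCC, or GGAATG where it lies on the other strand) in Tnn and Acta2.
Lrrc15 (chr16:30283205-30283504, minus strand): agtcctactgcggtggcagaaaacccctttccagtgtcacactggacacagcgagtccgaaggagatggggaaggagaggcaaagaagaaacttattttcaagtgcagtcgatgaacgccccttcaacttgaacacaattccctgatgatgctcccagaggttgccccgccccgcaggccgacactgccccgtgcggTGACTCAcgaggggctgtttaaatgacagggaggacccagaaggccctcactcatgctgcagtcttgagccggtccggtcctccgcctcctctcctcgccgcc
Tnn (chr1:160153526-160153825, minus strand): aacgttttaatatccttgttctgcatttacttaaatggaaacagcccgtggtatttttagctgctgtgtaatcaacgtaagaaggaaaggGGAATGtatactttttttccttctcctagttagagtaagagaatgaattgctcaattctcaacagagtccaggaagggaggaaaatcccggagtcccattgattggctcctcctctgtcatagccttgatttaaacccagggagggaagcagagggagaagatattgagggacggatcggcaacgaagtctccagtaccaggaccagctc
Acta2 (chr19:34255324-34255623, minus strand): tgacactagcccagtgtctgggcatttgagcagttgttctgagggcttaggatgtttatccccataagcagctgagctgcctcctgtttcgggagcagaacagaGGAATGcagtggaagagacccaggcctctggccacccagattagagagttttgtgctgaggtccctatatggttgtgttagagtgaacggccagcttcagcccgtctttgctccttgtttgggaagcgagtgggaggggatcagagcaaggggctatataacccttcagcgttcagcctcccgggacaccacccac
Cyp4b1 (chr4:115647672-115647971, minus strand): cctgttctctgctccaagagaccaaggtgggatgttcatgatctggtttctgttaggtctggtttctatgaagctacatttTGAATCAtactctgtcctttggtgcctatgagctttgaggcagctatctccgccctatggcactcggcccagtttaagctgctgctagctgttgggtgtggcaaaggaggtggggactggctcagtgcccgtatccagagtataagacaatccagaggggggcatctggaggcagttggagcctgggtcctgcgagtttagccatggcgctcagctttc
The first base of the match lies at -53 in Lrrc15, -160 in Tnn, -146 in Acta2 and -169 in Cyp4b1, counted from the start site. Both strands were searched in the 23 promoters listed for 17 of the 21 called genes, and no promoter among them held both MCAT and AP-1. MCAT stood in 5 of these 23 promoters (of Acta2, Igfbp5, Palld, Rasgrp3 and Tnn) and in 14.7% of all 32851 promoters of that length. AP-1 stood in 3 of the 23 (of Cyp4b1, Lrrc15 and Palld) and in 7.81% of all. The CArG box, searched only as CCWWWWWWGG (W is A or T), stood in 0 of the 23 and in 1.63% of all. Stretches off that pattern by a single base were not counted, such as ccctatatgg and ccttgtttgg in the Acta2 sequence above. A count of 0 thus does not mean that a promoter lacks a looser CArG element. A match is a stretch of letters only, and rises and falls both carried each of the first 2 motifs.

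Among the rises were genes of secreted matrix proteins. Tnn (chr1:160085032-160153575, minus strand) encodes tenascin N, a matrix glycoprotein. It measured 11.4, 13.9 and 13.8 CPM at 1.5 d and 189, 124 and 91.3 CPM at 3 d. The 3 d libraries were far above all others, and NW held 4.43, 4.74 and 2.09 CPM. Tnn rose by a mean of 10.3-fold (log2 change 3.37 ± 0.36 (SE), adjusted p = 0.00256). Postn (chr3:54359267-54391041, plus strand) encodes periostin, which binds collagen and integrins in healing tissue. Its levels were 1282, 1451 and 996 CPM at 1.5 d and 5509, 6759 and 3913 CPM at 3 d. All 3 d libraries lay above all others of the study, and NW was at 502, 261 and 338 CPM. Postn rose 4.34-fold (log2 change 2.12 ± 0.297 (SE), adjusted p = 0.0165). Per exon length, Postn was the most abundant of the 15 risen genes at 3 d, with a mean of 1584 RPKM (CPM per 1000 bases of exon), followed by Lrrc17 at 215 and Lrrc15 at 113, while Wnt9a was lowest at 7.85.

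Ccn3 (chr15:54745910-54753761, plus strand), once named Nov, encodes a secreted regulator of the CCN family that signals from the matrix. It read 26.9, 28.5 and 22.4 CPM at 1.5 d and 210.4, 266 and 146 CPM at 3 d. The 1.5 d values sat near those of NW (20.1, 22.8 and 17.1 CPM) and 16 h (27.7, 33.2 and 30.7 CPM), and the 3 d group stood clear of the other 9 libraries. The change was 8.00-fold and had the smallest adjusted p of the comparison (log2 change 3.00 ± 0.244 (SE), adjusted p = 0.0002). Col12a1 (chr9:79598987-79718722, minus strand) encodes collagen XII, which coats collagen fibrils. Its values were 198, 142 and 195 CPM at 1.5 d and 779, 695 and 416 CPM at 3 d. No library overlapped between the times, and replicate 3 was the lowest at 3 d. Col12a1 rose 3.53-fold (log2 change 1.82 ± 0.281 (SE), adjusted p = 0.0239). Fbln5 (chr12:101746565-101819119, minus strand) encodes fibulin 5, needed for elastic fibre assembly. It stood at 57.8, 58.6 and 47.9 CPM at 1.5 d and 112, 147 and 114 CPM at 3 d, with NW at 138, 102 and 109 CPM. The 3 d libraries were above those of 1.5 d and within or above the NW range. Fbln5 rose 2.27-fold (log2 change 1.18 ± 0.194 (SE), adjusted p = 0.0327).

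Lrrc15 (chr16:30269302-30283254, minus strand) encodes a membrane protein with leucine-rich repeats that is known from activated and tumour-associated myofibroblasts. It measured 35.1, 48.9 and 59.3 CPM at 1.5 d and 679, 777 and 342 CPM at 3 d. NW held 8.24, 7.43 and 1.59 CPM and 16 h 4.54, 9.49 and 2.28 CPM, so each wound time from 1.5 d on was above both. The rise of 12.6-fold was the largest of the 15 (log2 change 3.65 ± 0.601 (SE), adjusted p = 0.0327). Lrrc17 (chr5:21543527-21575902, plus strand) encodes a secreted protein with leucine-rich repeats. It read 166, 181 and 228 CPM at 1.5 d and 519, 478 and 412 CPM at 3 d, without overlap. Lrrc17 rose 2.45-fold (log2 change 1.29 ± 0.221 (SE), adjusted p = 0.0433). It shares 2.74% of its exon length with Fbxl13, and counting without strand cannot part the genes there.

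**Figure D2:**
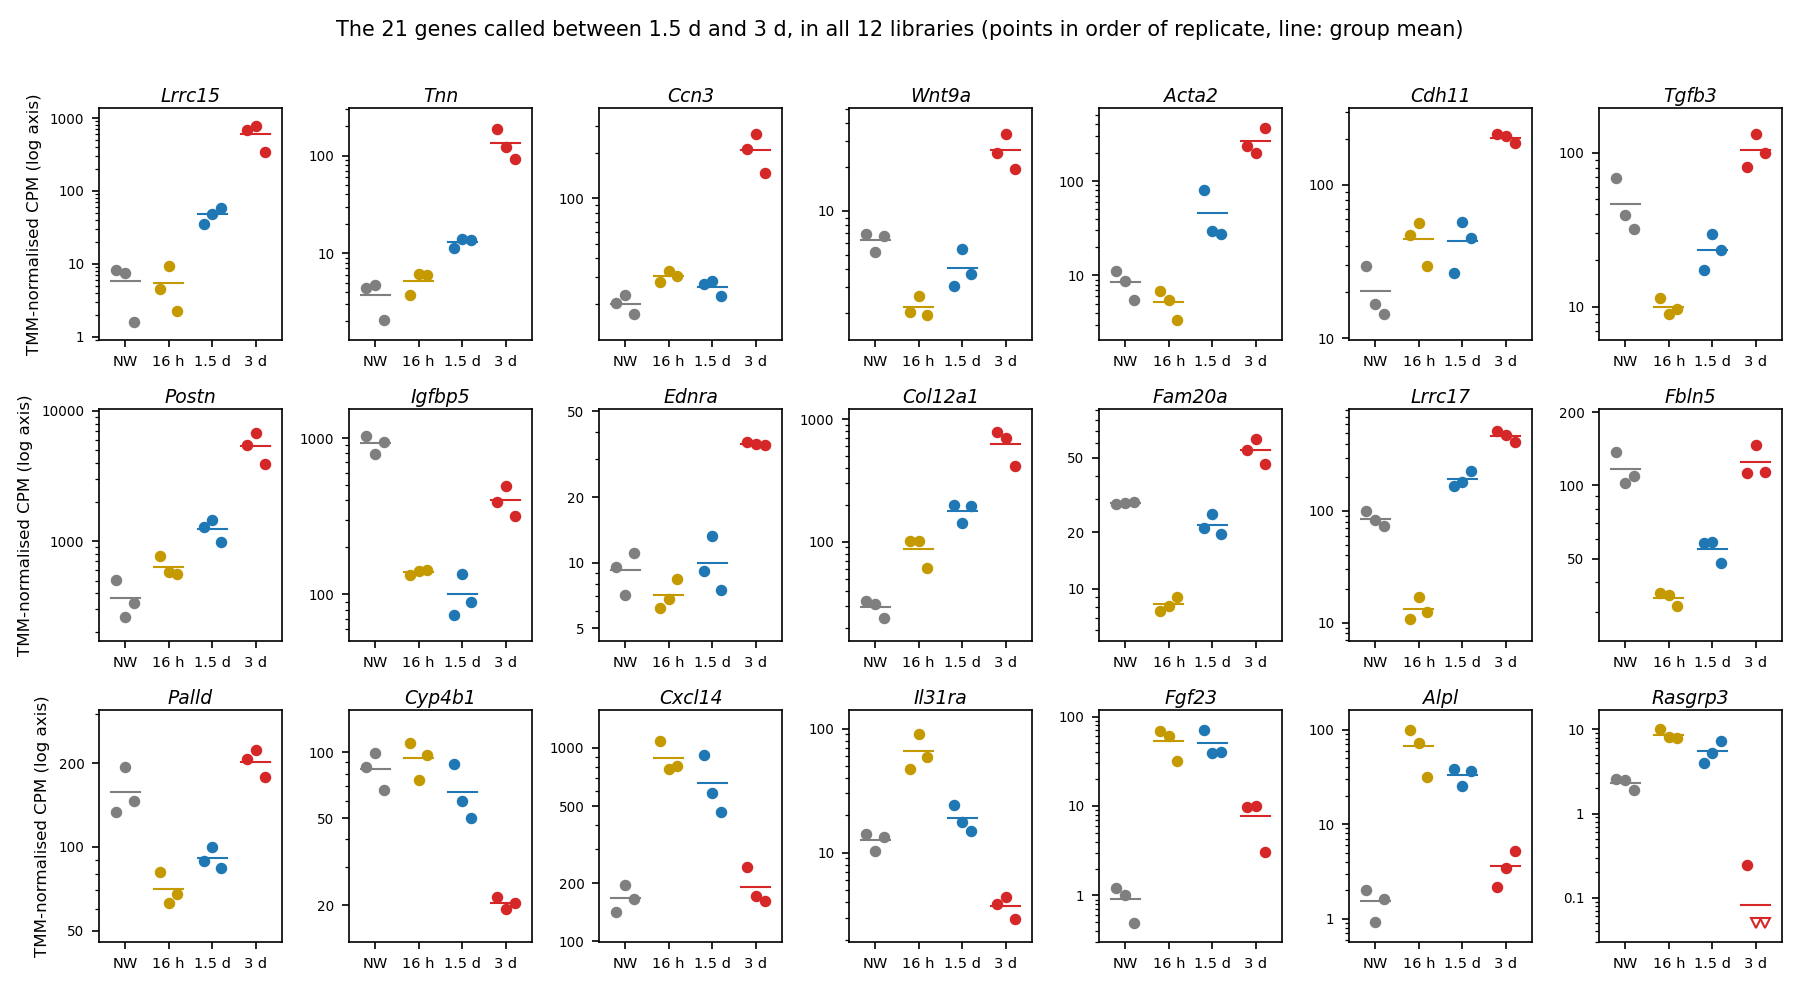
TMM-normalised CPM (log axes, each with its own range) of the 21 called genes in the 12 libraries, by group; points are libraries in order of replicate, lines are group means and open triangles stand for 0 counts. For 12 of the 15 risen genes the 3 d libraries are the highest of all 12 libraries, and Igfbp5 at 3 d stays under NW.

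In the collagen lists 1 gene was called. Of 10 fibrillar and FACIT collagens tested, Col12a1 was that gene, and 7 had all 3 d libraries above all 1.5 d libraries, as 6.93% of all genes did, with 0 on the lower side (6.63% of all genes). Their median log2 change was 1.20, and it stayed between 1.01 and 1.40 with 1 library left out. DESeq2 called 4 of the 10. Col1a1, the main chain of collagen I, stood at 11092, 20878 and 11163 CPM at 1.5 d and 42878, 57939 and 25399 CPM at 3 d. Its groups did not overlap, although the spread within each was wide and the test was not passed (log2 change 1.55 ± 0.539 (SE), adjusted p = 0.452). Col3a1 was at 44171, 53903 and 51999 CPM at 1.5 d and 103679, 116339 and 55947 CPM at 3 d (log2 change 0.88 ± 0.435 (SE), adjusted p = 0.668). Col11a1, a chain of the fibril-nucleating collagen XI, had 4, 12 and 0 counts at 1.5 d and 375, 672 and 552 at 3 d (adjusted p = 0.0564). All 3 NW libraries were at 0 CPM for it. The 10 collagens together with Col2a1 took 7.21%, 10.4% and 8.41% of counts at 1.5 d and 18%, 20.6% and 12.1% at 3 d. That share did not overlap between the times, and replicate 3 was lowest at 3 d.

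Among 17 basement membrane and other collagens the median was 0.59. Without overlap 6 were higher and 0 lower, against 6.93% and 6.63% of all genes. edgeR called 0 of them, 6 had an unadjusted p under 0.05, and DESeq2 called 4. Col7a1, the anchoring fibril collagen at the skin's basement membrane, read 14.3, 19 and 11 CPM at 1.5 d and 21.7, 65.2 and 94.4 CPM at 3 d (adjusted p = 0.12). Its 2 highest libraries were also the 2 with the most keratinocyte transcripts at 3 d, 0.841% and 1.49% of counts. With the keratinocyte level as a covariate its log2 change was 1.74 and passed (adjusted p = 0.0107), and it passed without 3 d replicate 1 too (adjusted p = 0.0337). Of 25 collagen processing enzymes, 7 were higher and 3 lower without overlap (median 0.29). edgeR called 0, 11 had an unadjusted p under 0.05 (7.99% of all genes), and DESeq2 called 3. P4ha2, a prolyl hydroxylase of collagen, was at 435, 289.6 and 394 CPM at 1.5 d and 802, 751 and 581 CPM at 3 d, while Loxl1, a lysyl oxidase that crosslinks elastin, was at 735, 508 and 616 CPM at 1.5 d and 472, 427 and 296 CPM at 3 d. Neither passed (adjusted p = 0.22 and 0.465).

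Of 30 matrix glycoproteins, 1 was called (Fbln5), and the median was 0.27. Another measure, libraries without overlap, held for 6 higher and 2 lower, against 6.93% and 6.63% of all genes. Fbn2, a fibrillin of microfibrils, stood at 56.8, 53.3 and 76.7 CPM at 1.5 d and 219, 238 and 101 CPM at 3 d (adjusted p = 0.0726). The 19 proteoglycan and hyaluronan genes split evenly, 3 higher and 3 lower without overlap, with a median of 0.00 that total-count scaling moved to -0.10. edgeR called 0 of them, 6 had an unadjusted p under 0.05, and DESeq2 called 4. Gpc1, a cell surface heparan sulfate proteoglycan, was at 130.3, 133 and 153 CPM at 1.5 d and 405, 399 and 336 CPM at 3 d (adjusted p = 0.0564). Prg4, the lubricating proteoglycan, was at 1649, 875 and 1329 CPM at 1.5 d and 617, 588 and 164 CPM at 3 d (adjusted p = 0.24), and 3 d replicate 3 was far under the others. Prg4 shares 4.77% of its exon length with Tpr. The 26 matrix proteases and inhibitors had a median of 0.06, which fell to -0.03 under total-count scaling, with 3 higher and 4 lower without overlap. edgeR called 0, 8 had an unadjusted p under 0.05, and DESeq2 called 2, both on the lower side. Mmp3, the protease stromelysin, was at 4079, 3109 and 2489 CPM at 1.5 d and 1624, 1577 and 1482 CPM at 3 d, all 3 d libraries under all 1.5 d ones (adjusted p = 0.188).

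Also among the rises were genes of the contractile apparatus and of cell contacts. Acta2 (chr19:34240336-34255373, minus strand) encodes the smooth muscle actin that defines myofibroblasts and also marks vessel walls. It measured 80, 29.6 and 27.5 CPM at 1.5 d and 235, 199.6 and 362 CPM at 3 d, against 11.3, 8.82 and 5.51 CPM in NW. The groups were apart, replicate 1 stood above the other 1.5 d libraries, and replicate 3 was the highest at 3 d. Acta2 rose 5.82-fold (log2 change 2.54 ± 0.44 (SE), adjusted p = 0.0457). Palld (chr8:61511431-61902707, minus strand) encodes palladin, a scaffold of actin bundles. It read 89.1, 100.4 and 84.4 CPM at 1.5 d and 206, 224 and 178 CPM at 3 d, and NW 133, 193 and 146 CPM. Every 3 d library was above every 1.5 d library, by 2.22-fold on average (log2 change 1.15 ± 0.199 (SE), adjusted p = 0.0457).

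Cdh11 (chr8:102632095-102785111, minus strand) encodes cadherin 11, which joins fibroblasts to each other. Its levels were 26.6, 57.7 and 45.2 CPM at 1.5 d and 214, 210.0 and 187 CPM at 3 d. The 3 d libraries lay close together and clear of all others, and Cdh11 rose 4.71-fold (log2 change 2.24 ± 0.343 (SE), adjusted p = 0.0239). Ednra (chr8:77663029-77724452, minus strand) encodes the endothelin receptor type A, which drives contraction. It stood at 9.2, 13.3 and 7.48 CPM at 1.5 d and 36, 35.1 and 35 CPM at 3 d, with the 3 libraries at 3 d nearly equal. Ednra rose 3.54-fold (log2 change 1.82 ± 0.288 (SE), adjusted p = 0.0239), from a level that overlapped NW (9.58, 7.14 and 11.1 CPM).

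Acta2 was the one gene of its fixed list that edgeR called. Of 27 contractile and SRF target genes tested, 12 were higher without overlap (6.93% of all genes) and 0 lower (6.63%). Their median was 0.48. DESeq2 called 5, all higher (0.832% of all genes). Tpm1, a tropomyosin, read 265, 232 and 160.4 CPM at 1.5 d and 465, 326 and 666 CPM at 3 d (log2 change 1.15 ± 0.277 (SE), adjusted p = 0.171). Myl9, a regulatory myosin light chain, was at 20.7, 12.4 and 5.71 CPM at 1.5 d and 32, 38.1 and 60.7 CPM at 3 d (adjusted p = 0.191), and Tagln, the actin-binding transgelin, was scarce at 4.57, 3.25 and 2.92 CPM at 1.5 d and 8.14, 7.18 and 19.7 CPM at 3 d (adjusted p = 0.341). Tagln shares 5.99% of its exon length with Pcsk7. In each of these 3 genes replicate 3 was the highest of the 3 d libraries, as in Acta2 and unlike the collagens. Over the whole contractile list, that library was the highest at 3 d in 13 of the 27 genes and the lowest in 9. Among the 10 collagens it was the highest in 0 and the lowest in 9. The summed contractile share was 0.602%, 0.554% and 0.604% of counts at 1.5 d and 0.682%, 0.570% and 0.782% at 3 d, so these sums overlapped.

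Markers of mural cells, the pericytes and smooth muscle of vessels that also use contractile genes, moved beside this group. Their 12 genes together took 0.00944%, 0.00914% and 0.00623% of counts at 1.5 d and 0.0148%, 0.0198% and 0.0223% at 3 d, without overlap. NW held 0.0316%, 0.0366% and 0.0314%, above every wound library, while Acta2 in NW was below both of these wound times. Of 11 mural markers tested, 0 were called by edgeR, 5 had an unadjusted p under 0.05 and DESeq2 called 2. Their median was 1.44, and 4 were higher and 1 lower without overlap, against 6.93% and 6.63% of all genes. The smallest edgeR adjusted p of the list was 0.0726. Rgs5, a pericyte marker, reached at most 3.16 CPM in the 6 libraries and Myh11, the smooth muscle myosin, at most 1.31 CPM. Both are only a small part of the summed share at 3 d, most of which lay on other members of the list. None of the 12 was at 0 in a whole group. The part of mural cells in the contractile values was not tested. Of the 15 integrin chains (median 0.26), edgeR and DESeq2 called 0, and 1 had an unadjusted p under 0.05 (7.99% of all genes). Also, 1 was higher and 1 lower without overlap, near the 6.93% and 6.63% of all genes. Of the 15 YAP and TEAD target genes, which report tension in other settings, edgeR and DESeq2 called 0, 1 had an unadjusted p under 0.05, and 0 separated the times (median -0.16).

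**Figure D3:**
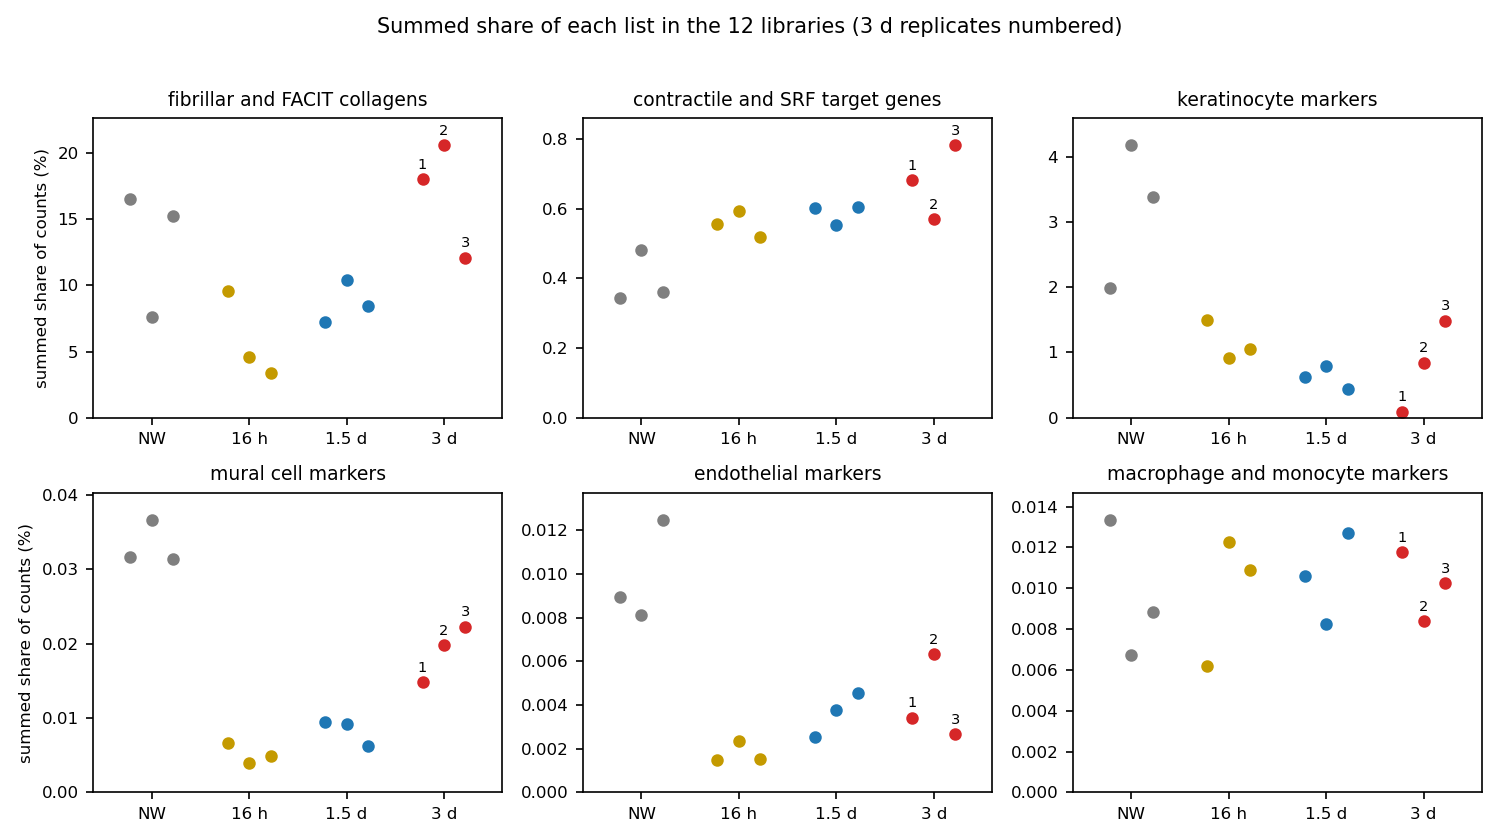
Summed share of counts (percent, vertical axes from 0) of 6 gene lists in the 12 libraries, with the 3 d replicates numbered. The collagen share is 12.1% to 20.6% at 3 d against 7.21% to 10.4% at 1.5 d, and the keratinocyte share at 3 d runs from 0.0898% in replicate 1 to 1.49% in replicate 3.

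As a list, the 18 myofibroblast and wound fibroblast markers all had a log2 change above 0, with a median of 1.53. edgeR called 4 (Lrrc15, Tnn, Cdh11 and Postn) and DESeq2 9, and 12 were higher without overlap (6.93% of all genes). Cthrc1, a secreted protein of matrix-forming fibroblasts, read 460.3, 209.6 and 281 CPM at 1.5 d and 951, 817 and 1048 CPM at 3 d (log2 change 1.57 ± 0.333 (SE), adjusted p = 0.0988). All 3 d libraries were above all 1.5 d libraries, yet the edgeR test was not passed, while DESeq2 gave an adjusted p of 0.000755. Tnc, the tenascin of early wounds, was at 2452, 2397 and 2949 CPM at 1.5 d and 4087, 3718 and 1561 CPM at 3 d (adjusted p = 0.963). Its groups overlapped, since 3 d replicate 3 was the lowest of the 6 libraries, and both times were far above NW (17.2, 11.6 and 10.2 CPM).

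Signalling genes among the rises were Tgfb3, Wnt9a, Igfbp5 and Fam20a. Tgfb3 (chr12:86056743-86079041, minus strand) encodes a TGF-beta ligand. It stood at 17.3, 29.8 and 23.4 CPM at 1.5 d and 81, 132 and 99.5 CPM at 3 d, against 68.4, 39.4 and 31.9 CPM in NW and 11.4, 9.01 and 9.63 CPM at 16 h. The 3 d libraries were the highest of the 12, and Tgfb3 rose 4.42-fold from 1.5 d (log2 change 2.15 ± 0.315 (SE), adjusted p = 0.0197). Wnt9a (chr11:59306930-59333552, plus strand) encodes a Wnt ligand. It read 3.07, 5.47 and 3.72 CPM at 1.5 d and 24.8, 33.9 and 19.5 CPM at 3 d, a low level at both times with no overlap, and rose 6.37-fold (log2 change 2.67 ± 0.347 (SE), adjusted p = 0.0105).

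Igfbp5 (chr1:72858065-72874865, minus strand) encodes a secreted protein that binds insulin-like growth factors. Its levels were 74.3, 135 and 90 CPM at 1.5 d and 389, 495 and 319 CPM at 3 d. NW held 1034, 791 and 949.8 CPM, above every wound library, so the rise of 4.02-fold from 1.5 d ended under the unwounded level (log2 change 2.01 ± 0.25 (SE), adjusted p = 0.00992). Fam20a (chr11:109672926-109722238, minus strand) encodes a pseudokinase that aids the phosphorylation of secreted proteins. It was at 21.2, 25.1 and 19.5 CPM at 1.5 d and 54.9, 63.1 and 46.6 CPM at 3 d, with 3 d above all other libraries. Fam20a rose 2.50-fold (log2 change 1.32 ± 0.209 (SE), adjusted p = 0.0239).

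The fixed lists around these ligands held 1 call. Of 29 TGF-beta, activin and BMP pathway genes, 1 was called (Tgfb3), 2 were higher and 5 lower without overlap (6.93% and 6.63% of all genes), and the median of 0.04 became -0.09 under total-count scaling. Tgfb2, a second ligand, read 51.3, 48.9 and 25.4 CPM at 1.5 d and 86, 76.7 and 72.5 CPM at 3 d (adjusted p = 0.301), and Fst, which binds activin, 1013, 338 and 439 CPM at 1.5 d and 319.8, 256 and 224 CPM at 3 d (adjusted p = 0.299). Of 24 tested genes of the Wnt pathway list, 7 were higher and 0 lower without overlap (median 0.29). edgeR called 0, 6 had an unadjusted p under 0.05 and DESeq2 called 3. Wnt5a, a ligand, was at 16.7, 13.5 and 14.3 CPM at 1.5 d and 40.9, 25.6 and 30 CPM at 3 d (adjusted p = 0.197). Sfrp2, a secreted Wnt modulator, was at 389, 255 and 629 CPM at 1.5 d and 2069, 1089 and 963 CPM at 3 d (adjusted p = 0.17), and its lowest 3 d library was above its highest 1.5 d one. Of 28 growth factors, 8 were higher and 5 lower without overlap (median 0.46). edgeR called 0, 9 had an unadjusted p under 0.05 (7.99% of all genes) and DESeq2 called 1. Ptn, the secreted factor pleiotrophin, read 3.03, 7.46 and 1.51 CPM at 1.5 d and 12.3, 20.8 and 26.1 CPM at 3 d (adjusted p = 0.147).

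The 6 genes that fell include a chemokine, a cytokine receptor and a mineral metabolism pair. Cxcl14 (chr13:56288643-56296551, minus strand) encodes a chemokine made by skin cells. It measured 919, 587 and 465 CPM at 1.5 d and 241, 171 and 161 CPM at 3 d. The 3 d libraries lay beside NW (142, 195 and 166 CPM) and the 1.5 d libraries nearer to 16 h (1089, 781 and 805 CPM). Cxcl14 was 3.44-fold lower at 3 d (log2 change -1.78 ± 0.278 (SE), adjusted p = 0.0239). Il31ra (chr13:112522807-112580662, minus strand) encodes a receptor subunit for interleukin 31. It read 24.3, 17.8 and 15 CPM at 1.5 d and 3.87, 4.38 and 2.93 CPM at 3 d, and NW 14.2, 10.3 and 13.3 CPM. The 3 d libraries were the lowest of all 12, and the fall was 5.11-fold (log2 change -2.35 ± 0.309 (SE), adjusted p = 0.0105).

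Fgf23 (chr6:127072902-127082296, plus strand) encodes a hormone, known from bone, that lowers blood phosphate. It stood at 70.7, 39.6 and 40.3 CPM at 1.5 d and 9.77, 10.1 and 3.07 CPM at 3 d, and 16 h at 68, 60.1 and 31.7 CPM. NW had 1.22, 1.02 and 0.498 CPM, so 3 d remained above it, and the level was 6.58-fold lower than at 1.5 d (log2 change -2.72 ± 0.474 (SE), adjusted p = 0.0463). Alpl (chr4:137741731-137796384, minus strand) encodes tissue-nonspecific alkaline phosphatase, an enzyme of mineralisation that also marks the dermal papilla of hair. It was at 38.7, 25.5 and 36.1 CPM at 1.5 d and 2.16, 3.45 and 5.2 CPM at 3 d. These 3 d values were 9.25-fold lower on average (log2 change -3.21 ± 0.454 (SE), adjusted p = 0.0165), just above NW (2.02, 0.921 and 1.63 CPM).

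Cyp4b1 (chr4:115624698-115647721, minus strand) encodes a cytochrome P450 enzyme. It read 88.1, 60 and 50.3 CPM at 1.5 d and 21.7, 19.1 and 20.5 CPM at 3 d, with 3 d under all other libraries and NW at 85.8, 99.4 and 67.3 CPM. Cyp4b1 was 3.23-fold lower (log2 change -1.69 ± 0.249 (SE), adjusted p = 0.0197). Rasgrp3 (chr17:75435905-75529053, plus strand) encodes an activator of Ras proteins. It was scarce throughout, with 120, 216 and 325 counts at 1.5 d and 6, 0 and 0 counts at 3 d. As 2 of its 3 d libraries were empty, its fitted change is not given as a fold (adjusted p = 0.023). It was at 2.56, 2.53 and 1.89 CPM in NW and 10, 8.04 and 7.92 CPM at 16 h.

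The chemokine and cytokine lists had medians below 0 and 1 call. Of 18 chemokines, 1 was called lower (Cxcl14), and the median was -0.61. Without overlap 7 were lower and 3 higher, against 6.63% and 6.93% of all genes. Of 28 cytokines and their receptors, 12 were lower and 1 higher without overlap, with a median of -0.64. edgeR called 0 of them, 13 had an unadjusted p under 0.05, and DESeq2 called 2 lower and 1 higher. Il6, an early cytokine of injury, stood at 1764, 665 and 800.5 CPM at 1.5 d and 426, 276 and 298 CPM at 3 d (log2 change -1.69 ± 0.352 (SE), adjusted p = 0.091). Tnfrsf1a, a receptor for TNF, read 284, 271 and 277 CPM at 1.5 d and 191, 182 and 164 CPM at 3 d (adjusted p = 0.188). In Il6, 1.5 d replicate 1 was the highest library by a wide margin. That library was the highest at 1.5 d in 15 of the 18 chemokines and 18 of the 28 cytokine genes, and without it the medians were -0.34 and -0.28.

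The neutrophil chemokine Cxcl5 was at 3684, 1583 and 2609.7 CPM at 1.5 d and 1430.5, 622 and 1120.1 CPM at 3 d (adjusted p = 0.622), and Cxcl1 at 3689, 2078 and 2203 CPM at 1.5 d and 1764, 1255 and 1669.9 CPM at 3 d (adjusted p = 0.525). Both kept the times apart without passing the test. Ccl2, which attracts monocytes, overlapped at 3778, 1824 and 1514 CPM at 1.5 d and 1713, 1098 and 2023 CPM at 3 d (adjusted p = 0.83). On the other side, the interferon-induced chemokine Cxcl9 read 5.1, 3.35 and 2.21 CPM at 1.5 d and 19.9, 42.6 and 22.9 CPM at 3 d (log2 change 3.00 ± 0.555 (SE), adjusted p = 0.0564), a clear gap that missed the threshold and was called by DESeq2 (8.73e-06). Cxcl10, of the same kind, stood at 61.5, 32.5 and 34.5 CPM at 1.5 d and 84.4, 141 and 84.4 CPM at 3 d (adjusted p = 0.147). Among the 25 interferon-stimulated genes (median 0.32) 5 were higher and 0 lower without overlap, against 6.93% and 6.63% of all genes. edgeR and DESeq2 called 0, and 3 had an unadjusted p under 0.05 (7.99% of all genes).

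Of 20 complement and acute phase genes (median -0.21) 5 were lower and 0 higher without overlap, against 6.63% and 6.93% of all genes. edgeR called 0, 5 had an unadjusted p under 0.05 and DESeq2 called 3. Ptx3, a soluble pattern receptor, stood at 5635, 2372 and 4439 CPM at 1.5 d and 1627, 1007 and 976 CPM at 3 d (log2 change -1.79 ± 0.335 (SE), adjusted p = 0.0564). Saa3, an acute phase protein, overlapped at 4786, 2274 and 1365 CPM at 1.5 d and 1748, 737 and 836 CPM at 3 d (adjusted p = 0.705). Of 20 NF-kB targets and regulators 5 were lower and 0 higher without overlap (median -0.19). edgeR called 0, 7 had an unadjusted p under 0.05 and DESeq2 called 2. Sod2, a mitochondrial superoxide dismutase and NF-kB target, read 866, 347 and 499 CPM at 1.5 d and 218, 103 and 172 CPM at 3 d (adjusted p = 0.0564), and Ptges, which makes prostaglandin E, 404, 283 and 341 CPM at 1.5 d and 116, 166 and 146 CPM at 3 d (adjusted p = 0.0738).

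By rule the falls were filled up with the genes next in p, which did not pass. Penk, the precursor of enkephalins, stood at 859, 395 and 408 CPM at 1.5 d and 157, 78.8 and 155 CPM at 3 d (adjusted p = 0.0506). Ch25h, which makes 25-hydroxycholesterol, was at 118, 25.2 and 70.8 CPM at 1.5 d and 16.9, 10.7 and 10.1 CPM at 3 d (adjusted p = 0.0564). Cyp26b1, which breaks down retinoic acid, was at 63.2, 34.2 and 28.6 CPM at 1.5 d and 11.6, 11.8 and 11.2 CPM at 3 d (adjusted p = 0.0546). Each had all 3 d libraries under all 1.5 d libraries. So did C1qtnf7, a secreted C1q-related protein, with 33.5, 29.4 and 32.3 CPM at 1.5 d and 12.3, 6.21 and 11.7 CPM at 3 d (adjusted p = 0.0506). Sdc4, a syndecan of focal adhesions, read 548, 342 and 399.5 CPM at 1.5 d and 178, 212 and 173 CPM at 3 d, and the vasodilator peptide gene Adm 248, 139 and 152 CPM at 1.5 d and 75.6, 77.7 and 41.8 CPM at 3 d (both adjusted p = 0.0564). DESeq2 gave these 6 genes adjusted p values from 1.58e-05 to 0.000153.

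Several lists of growth and metabolism had nearly all members below 0 and no call. All 25 ribosome biogenesis genes had a log2 change below 0, with a median of -0.52 and 13 lower without overlap (6.63% of all genes). edgeR called 0, 12 had an unadjusted p under 0.05 and DESeq2 called 1. Bysl, a factor of the small ribosomal subunit, stood at 69.4, 46.2 and 63 CPM at 1.5 d and 33.6, 26.6 and 37.7 CPM at 3 d (adjusted p = 0.251), and Nop2, an RNA methyltransferase of the nucleolus, at 91, 67.8 and 78.3 CPM at 1.5 d and 42.6, 40.9 and 57.2 CPM at 3 d (adjusted p = 0.24). The groups were apart in each, and Bysl shares 9.29% of its exon length with Ccnd3. The 25 cytosolic ribosomal proteins themselves had 0 members without overlap and a median of -0.14, which became 0.20 without 1.5 d replicate 1. edgeR and DESeq2 called 0 of them, and 0 had an unadjusted p under 0.05.

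All 23 cholesterol synthesis genes were below 0 as well, with a median of -0.57 and 12 lower without overlap (6.63% of all genes). edgeR and DESeq2 called 0, and 8 had an unadjusted p under 0.05. Insig1, a feedback regulator of sterol synthesis, was at 79.3, 61 and 76.4 CPM at 1.5 d and 44, 41.3 and 42.2 CPM at 3 d (adjusted p = 0.483), and Stard4, a sterol carrier, at 24.8, 13.1 and 15.9 CPM at 1.5 d and 8.67, 7.22 and 10.6 CPM at 3 d (adjusted p = 0.422). Of 20 NRF2 antioxidant genes 10 were lower and 1 higher without overlap (median -0.47). edgeR called 0, 11 had an unadjusted p under 0.05 and DESeq2 called 3. Gsta4, a glutathione transferase, read 73.4, 39.9 and 25.1 CPM at 1.5 d and 1.18, 6.77 and 11.6 CPM at 3 d (adjusted p = 0.248). The medians of these 3 lists kept their sign with any 1 library left out, from -0.62 to -0.40 for ribosome biogenesis, -0.63 to -0.52 for cholesterol synthesis and -0.54 to -0.31 for NRF2 genes.

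Lists of energy metabolism had medians on either side of 0. Of 19 glycolysis genes (median 0.22) 5 were higher and 0 lower without overlap, against 6.93% and 6.63% of all genes. edgeR and DESeq2 called 0, and 2 had an unadjusted p under 0.05 (7.99% of all genes). Eno1, the enolase of glycolysis, stood at 1304, 912 and 1128 CPM at 1.5 d and 1830.3, 1581 and 1821 CPM at 3 d (adjusted p = 0.42). Of 18 hypoxia response genes 4 were higher and 2 lower without overlap (median 0.37). edgeR called 0, 6 had an unadjusted p under 0.05 and DESeq2 called 1 in each direction. Egln1, an oxygen sensor, read 98.4, 80 and 88.9 CPM at 1.5 d and 145, 159.7 and 162 CPM at 3 d (adjusted p = 0.116), and Epas1, the factor HIF-2 alpha, 46.8, 19.3 and 38 CPM at 1.5 d and 13.9, 16.5 and 9.18 CPM at 3 d (adjusted p = 0.325). The 25 oxidative phosphorylation genes had a median of -0.24, which became 0.05 without 1.5 d replicate 1, and 2 lower without overlap. edgeR and DESeq2 called 0 of them, and 0 had an unadjusted p under 0.05. For 24 genes of the TCA cycle and fatty acid oxidation the median was -0.23, with 4 lower without overlap, 0 called by edgeR and DESeq2 and 1 at an unadjusted p under 0.05.

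No gene of the 2 cell cycle lists was called. The 25 genes of G1/S and DNA replication had a median of 0.06, which was -0.02 under total-count scaling, and the 25 of G2/M and mitosis 0.19, with 24 of the 25 above 0. Together 3 of these 50 were higher without overlap, near the 6.93% of all genes. edgeR and DESeq2 called 0, and 1 had an unadjusted p under 0.05. Mki67, the marker of cycling cells, stood at 30.9, 62.3 and 44.1 CPM at 1.5 d and 50.7, 41.6 and 46.4 CPM at 3 d (adjusted p = 0.998). In 5 further lists edgeR called 0 genes as well. Medians were -0.12 for 24 immediate early genes, -0.11 for 26 aminoacyl-tRNA synthetases and ATF4 targets, -0.21 for 20 genes of ER folding, 0.09 for 24 of the secretory pathway (-0.02 under total-count scaling) and -0.18 for 16 heat shock and metallothionein genes. In that order 3, 3, 4, 0 and 2 members had an unadjusted p under 0.05 (7.99% of all genes). DESeq2 called 1, 1, 1, 0 and 2, against 0.832% of all genes higher and 0.51% lower.

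**Figure D4:**
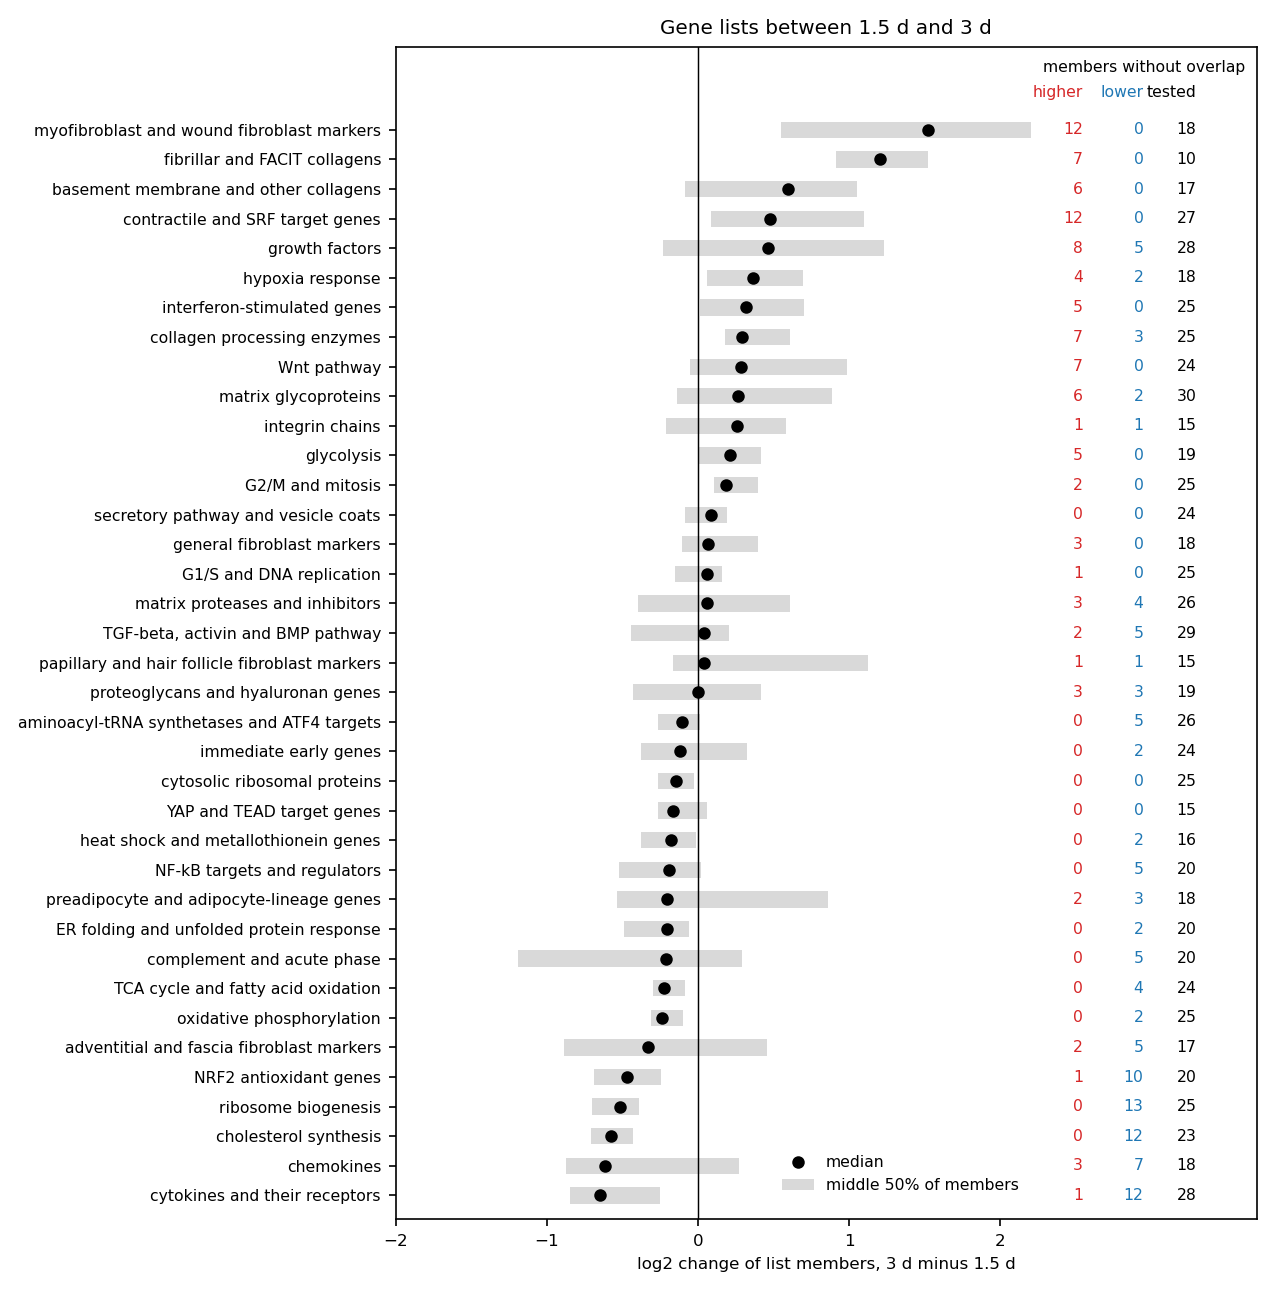
Median (points) and middle 50% (bars) of the log2 change from 1.5 d to 3 d over the tested members of 37 gene lists, with the numbers of members whose libraries did not overlap between the times and the number tested at the right. Myofibroblast markers (median 1.53) and fibrillar collagens (1.20) stand at the top, and cytokines (-0.64) and chemokines (-0.61) at the bottom.

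Among markers of fibroblast subsets 2 genes were called. Of 17 adventitial and fascia markers, 1 was called (Ccn3, higher), and the median was -0.33. Libraries did not overlap for 2 higher and 5 lower members, against 6.93% and 6.63% of all genes. Pi16, an adventitial marker, overlapped at 1479.9, 748 and 1045 CPM at 1.5 d and 994, 766 and 470.3 CPM at 3 d (adjusted p = 0.745). Of 15 papillary and hair follicle markers 1 was called (Alpl, lower), and the median of 0.04 was 0.47 without 1.5 d replicate 1. The 18 preadipocyte and adipocyte-lineage genes had a median of -0.21, which was 0.07 without 1.5 d replicate 1, and the 18 general fibroblast markers one of 0.07, which was -0.05 under total-count scaling. edgeR and DESeq2 called 0 of either list, where 5 and 3 members had an unadjusted p under 0.05. Pdgfra, the PDGF receptor that most dermal fibroblasts carry, stood at 443, 974 and 955 CPM at 1.5 d and 504, 488 and 283 CPM at 3 d (adjusted p = 0.509), with 1.5 d replicate 1 inside the 3 d range.

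Seen over the whole course, the called genes had reached 3 d along different paths. The 16 h and NW libraries are not those of the 2 times compared above. Both comparisons come from the same fit, though, and share its scaling, its filter and its estimate of the spread. Between 16 h and NW, edgeR called 2015 genes higher (13.5%) and 1672 lower (11.2%). Of the 15 risen genes 2 had been higher at 16 h than in NW (Col12a1 and Cdh11) and 7 lower (Palld, Fbln5, Igfbp5, Lrrc17, Wnt9a, Fam20a and Tgfb3), while 6 passed in neither direction. Lrrc17, for one, went from 99.2, 83.1 and 72.5 CPM in NW to 10.7, 16.9 and 12.4 CPM at 16 h before the 3 d level given above. Of the 6 fallen genes 4 had been higher at 16 h than in NW (Alpl, Fgf23, Cxcl14 and Il31ra) and 0 lower. At 3 d, 12 of the 15 risen genes stood above all NW libraries, as 20.9% of all genes did, and Igfbp5 below all, as did 19.4%. These genes were called for being high at 3 d, so nothing is read from that count. Fbln5 and Palld overlapped NW. Of the fallen genes Alpl and Fgf23 were still above NW, Cyp4b1, Rasgrp3 and Il31ra below it, and Cxcl14 overlapped it.

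The number of calls changed with the library left out. Each of these fits also filtered the genes anew and tested 15459 to 15506 of them, against 14901 in the main fit. Without 3 d replicate 2 only Ccn3 and Tnn of the 21 passed, the total was 2 higher and 0 lower, and 773 genes had an unadjusted p under 0.05. Without 1.5 d replicate 3 the test called 2 higher and 5 lower, 5 of them among the 21. Leaving out 1.5 d replicate 1 kept 8 of the 21, 1.5 d replicate 2 kept 14, 3 d replicate 1 kept 9 and 3 d replicate 3 kept 11. Each of the 21 kept its direction in all these fits. Their libraries did not overlap between the times, so leaving out 1 could hardly have turned a direction. Ccn3 and Tnn passed in all 6, with adjusted p between 6.45e-05 and 0.0047 and between 0.002 and 0.0272. Il31ra passed in 5 (between 0.0254 and 0.0723), and Wnt9a (between 0.0127 and 0.115) and Igfbp5 (between 0.00761 and 0.0723) in 4. Postn (between 0.0127 and 0.116), Tgfb3 (between 0.0295 and 0.119), Cxcl14 (between 0.0335 and 0.145), Alpl (between 0.0254 and 0.119) and Rasgrp3 (between 0.00209 and 0.119) passed in 3. Fam20a (between 0.0441 and 0.145) and Cyp4b1 (between 0.0295 and 0.119) passed in 2, and Lrrc15 (between 0.0431 and 0.157), Acta2 (between 0.0193 and 0.167), Cdh11 (between 0.0295 and 0.119), Ednra (between 0.0295 and 0.137) and Col12a1 (between 0.0127 and 0.119) in 1. Lrrc17 (between 0.0644 and 0.155), Fbln5 (between 0.0644 and 0.157), Palld (between 0.0644 and 0.167) and Fgf23 (between 0.0599 and 0.15) passed in 0 of the 6. A fit on the 6 libraries alone has fewer libraries to estimate the spread from, and its own filter left 14020 genes. It kept 10 of the 21: Alpl, Ccn3, Cdh11, Igfbp5, Il31ra, Lrrc15, Postn, Tgfb3, Tnn and Wnt9a.

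**Figure D5:**
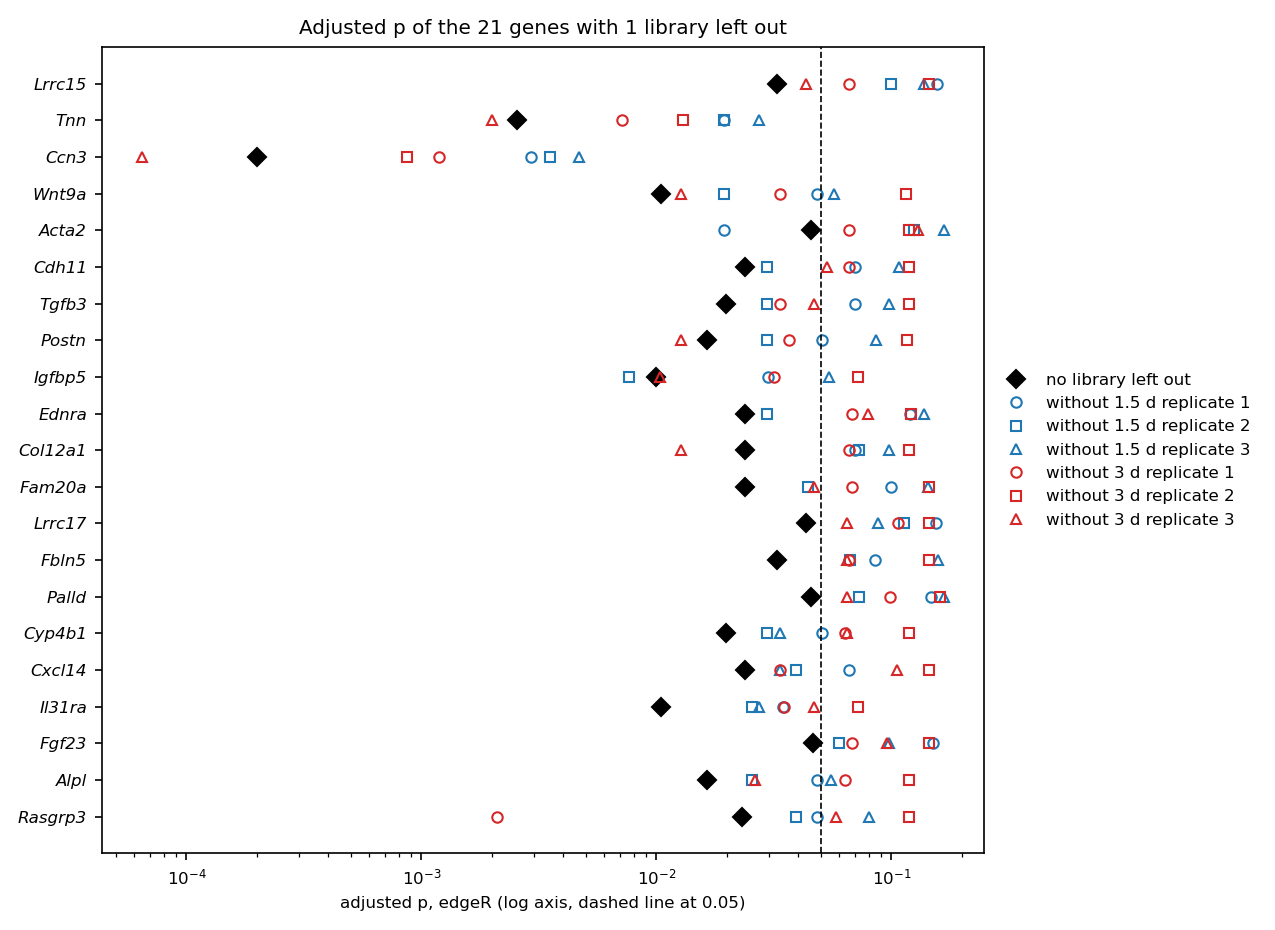
Adjusted p of the edgeR test (log axis) for the 21 called genes with all libraries (black) and with 1 library at 1.5 d (blue) or 3 d (red) left out. Ccn3 and Tnn stay left of the dashed line at 0.05 in all 6 cases, and the red squares, without 3 d replicate 2, lie right of it for the other 19 genes.

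Transcripts of other cell types varied between the 3 d libraries. The 22 keratinocyte markers took 0.628%, 0.791% and 0.447% of counts at 1.5 d and 0.0898%, 0.841% and 1.49% at 3 d, so the groups overlapped, and none was at 0 in a whole group. Krt1, a keratin of differentiated epidermis, was at 36.3, 95.8 and 95.9 CPM at 1.5 d and 58.2, 1005 and 525 CPM at 3 d (adjusted p = 0.242). Replicate 3, with the largest keratinocyte share at 3 d, was the lowest 3 d library in 12 of the 15 risen genes and the highest in 1, Acta2. Replicate 2 was the highest in 9 and the lowest in 1. Replicate 1, with the smallest keratinocyte share, was the highest in 5 and the lowest in 2, so the order of the libraries was not that of these shares. How often replicate 3 was the lowest over all genes was not counted. With the keratinocyte level as a covariate 20 of the 21 genes were still called, all but Palld (adjusted p = 0.0515). Macrophage and monocyte markers took 0.0106%, 0.00823% and 0.0127% of counts at 1.5 d and 0.0118%, 0.00839% and 0.0103% at 3 d, and endothelial markers 0.00254%, 0.00379% and 0.00455%, then 0.00341%, 0.00633% and 0.00266%, so both sums overlapped. Of 13 endothelial markers tested 11 had a log2 change above 0 (median 1.91), 0 had an unadjusted p under 0.05 and DESeq2 called 0. Of these 13, 4 were higher and 0 lower without overlap, against 6.93% and 6.63% of all genes. The part of such cells in the contractile values was not tested. Neutrophil, lymphocyte and mast cell, and red blood cell markers took at most 0.00142% in each of the 6 libraries, with Ly6g, Cd3e, Cd8a, Ms4a1, Kit, Hba-a1, Hba-a2, Hbb-bs and Hbb-bt at 0 at both times. Schwann cell and melanocyte, skeletal muscle and mature adipocyte markers took at most 0.00294%, with Tyrp1, Foxd3 and Pax7 at 0. edgeR called 0 members of the lists of other cell types. There 4 keratinocyte, 5 mural, 1 Schwann cell or melanocyte and 2 skeletal muscle markers had an unadjusted p under 0.05 (7.99% of all genes). DESeq2 called 1 keratinocyte and 2 mural markers.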

How the data were processed

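Per the labels, polyA RNA of the sorted cells was amplified as full-length cDNA (SMART-Seq v4) and made into Nextera XT libraries, which do not mark strand. Per the file headers, the authors assigned read pairs to gene symbols with featureCounts 2.0.0 against the mm10 refGene exons, and the table gives raw counts. No option for strand, multi-mapping or overlapping genes is set there, so pairs that fit several places or genes went uncounted by default. The submitters' processing notes name STAR, SAMtools, Subread and Partek, without versions.

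From these counts, genes were filtered (filterByExpr) and scaled (TMM), and 1 model by group was fitted to the 12 libraries with edgeR 4.0.16 (robust quasi-likelihood) in R 4.3.3. The contrast 3 d minus 1.5 d was tested, with Benjamini-Hochberg adjustment over 14901 genes and a threshold of 0.05. SEs were back-calculated as the change over the square root of F. P values rest on the spread between mice within groups, at 3 mice per group. That spread was estimated over all 12 libraries and moderated across genes, not from the 2 times alone. Alternatives used DESeq2 1.42.0, limma-voom (limma 3.58.1), other scalings and filters, a covariate, a block and left-out libraries. The script was tested on simulated data. The labels name no batch.

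The comparison and the 47 gene lists (37 programmes, 10 other cell types; 2 of 948 symbols are not in the table) were chosen with earlier results of these data known. Genes named are called genes (the 12 largest per direction at 10 CPM or more, without overlap, filled up by p), up to 4 members of a list by p, and a panel; Lrrc17, Palld, Rasgrp3, Rgs5 and Myh11, the markers at 0 and the genes sharing exons fall outside this rule and were named after their values were seen. Promoters came from RefSeq.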

Additional observations from a re-analysis of the deposited data

How the results depend on the processing

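The counts of calls and their split by direction both depended on the processing. Higher genes made up 71.4% of the calls in the main fit, 41.2% under total-count scaling and 85% with the 6 libraries alone. Against 15 higher and 6 lower, DESeq2 gave 124 and 76, limma-voom 52 and 22, and no filter on low counts 28 and 23. Total-count scaling gave 30 lower, the keratinocyte covariate 15 lower and the 6 libraries alone 3 lower, with higher counts of 21, 15 and 17. With 1 library of the 2 times left out, 2 to 15 genes were higher and 0 to 14 lower; an arm of 2 libraries then borrows the spread of the other groups. RLE size factors and a filter of 1 CPM left 15 and 6, and leaving out 16 h replicate 3 gave 19 and 6. The number of genes tested also differed, from 13309 with the 1 CPM filter to 19745 with no filter. The cause of the differences in calls was not tested. All 21 genes kept their sign in each of these fits. They were called on these same counts with libraries that did not overlap between the times, so nothing is read from that.

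Replicate numbers are shared between the groups, but the mice differ and the numbers did not pair the libraries: deviations of same-numbered 1.5 d and 3 d libraries correlated at -0.01, 0.17 and -0.17. A replicate block gave 10 higher and 9 lower, 15 of them among the 21.

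Depth limits what can be said of Rasgrp3 and Col11a1, which have libraries at 0, and of the markers of other cell types listed at 0. With 3 mice per group, a gene that missed the threshold is not shown to be equal at both times.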
